A study of Mus musculus with 6 samples.

Results

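Broad single-gene end regions are stretches of open chromatin at least 1000 bp wide that lie within 1 kb of an end of exactly 1 protein-coding gene. They were picked from an ATAC-seq count matrix by width and position alone: the end coordinate minus the start coordinate had to be 1000 bp or more, and the gene ends came from the mouse RefSeq annotation of GRCm38.p6, the assembly of mm10. Of 24605 regions, 624 were that wide. Of these, 285 lay at the end of 1 gene, 228 lay at no gene end and 111 lay at ends of more than 1 gene. The 285 members belonged to 285 different genes and were 1000 to 2007 bp wide, with a median of 1120 bp, against a median of 443 bp for the whole matrix. They were set beside 7511 narrower regions that also lay at the end of exactly 1 protein-coding gene.

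The libraries were made from CD8+ T cells of wild-type (WT) mice, taken per the labels from the pancreas, the spleen and lymph nodes. Cells had been kept in T cell medium for 48 hours with 100 µM palmitate, a saturated fatty acid (3 libraries), or as control (3 libraries), and the study set out to learn what palmitate does to CD8+ T cell function. ATAC-seq cuts and tags DNA that nucleosomes leave open with the Tn5 transposase, and each library came from 50000 cells purified by flow cytometry. The labels used here give no strain, sex or age of the mice. The treatment note of every library names palmitate, so groups were taken from the titles and treatment labels. Nothing in the labels says that libraries of 1 group came from separate animals or cultures. Every p-value below sets the difference between the groups against the spread of these libraries, and that spread may be technical in origin.

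Most mouse genes with CpG-rich starts keep a short nucleosome-free stretch just before the start of transcription, where the transcription machinery and factors such as SP1 and the ETS family bind. A wider open stretch can hold several start sites, a neighbouring enhancer or a second, non-coding transcript, and wide accessible starts are often seen at constantly used genes and at regulators of a cell's identity. In T cells, genes such as Egr1, Nfkbia and Dusp2 are switched on within minutes of receptor signalling, and their starts are often open before that.

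The start windows of 6 members are shown as examples of members that passed in each direction. Tspoap1 and Rpl3, which had the lowest log2 fold changes of all members, are not among them. Each window runs 250 bases before to 50 bases after a RefSeq start (GRCm38.p6), 5′ to 3′ on the gene's strand. Sp1 had the highest count rate of all members, Map2k2 was the member that passed as higher with and without correction for region strength, and Gtf3c6, Alyref2, Rnf182 and Ikbke passed as lower. Capitals mark 5 short motifs wherever they matched on either strand. The GC box was searched as GGGCGG. The box named CCAAT was searched by those letters, and the core of ETS factor sites as CCGGAAG. The TATA box was searched as TATAAA, and the AP-1 site, where Fos and Jun factors bind, as TGANTCA with N for any base. Matches that overlap or adjoin appear as 1 run of capitals.
Sp1: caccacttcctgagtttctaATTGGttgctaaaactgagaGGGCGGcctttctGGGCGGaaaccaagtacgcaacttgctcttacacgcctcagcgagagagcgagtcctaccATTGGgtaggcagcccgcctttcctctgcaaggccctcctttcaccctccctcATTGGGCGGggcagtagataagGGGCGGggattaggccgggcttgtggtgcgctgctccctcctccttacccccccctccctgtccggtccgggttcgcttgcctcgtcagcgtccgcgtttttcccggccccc
Map2k2: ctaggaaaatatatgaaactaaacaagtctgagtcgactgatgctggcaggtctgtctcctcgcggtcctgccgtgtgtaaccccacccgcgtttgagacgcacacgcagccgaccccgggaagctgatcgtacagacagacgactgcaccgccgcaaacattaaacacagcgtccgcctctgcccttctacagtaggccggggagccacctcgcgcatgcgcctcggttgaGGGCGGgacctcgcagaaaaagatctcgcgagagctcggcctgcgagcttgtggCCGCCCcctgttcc
Gtf3c6: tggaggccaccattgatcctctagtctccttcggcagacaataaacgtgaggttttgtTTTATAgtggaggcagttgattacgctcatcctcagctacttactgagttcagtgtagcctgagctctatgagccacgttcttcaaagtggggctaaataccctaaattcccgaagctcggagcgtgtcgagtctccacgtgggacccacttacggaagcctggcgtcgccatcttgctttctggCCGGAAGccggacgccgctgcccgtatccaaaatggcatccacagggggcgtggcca
Alyref2: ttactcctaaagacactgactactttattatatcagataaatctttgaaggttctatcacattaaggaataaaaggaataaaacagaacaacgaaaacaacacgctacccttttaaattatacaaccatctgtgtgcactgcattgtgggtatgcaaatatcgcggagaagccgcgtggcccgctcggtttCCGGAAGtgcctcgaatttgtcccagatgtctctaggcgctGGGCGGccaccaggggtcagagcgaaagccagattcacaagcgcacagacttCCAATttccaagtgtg
Rnf182: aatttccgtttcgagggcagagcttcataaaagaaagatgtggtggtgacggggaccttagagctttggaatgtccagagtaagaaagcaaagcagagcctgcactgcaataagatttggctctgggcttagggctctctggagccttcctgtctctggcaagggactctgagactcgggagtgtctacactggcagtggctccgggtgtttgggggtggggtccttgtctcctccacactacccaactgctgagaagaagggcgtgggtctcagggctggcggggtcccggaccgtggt
Ikbke: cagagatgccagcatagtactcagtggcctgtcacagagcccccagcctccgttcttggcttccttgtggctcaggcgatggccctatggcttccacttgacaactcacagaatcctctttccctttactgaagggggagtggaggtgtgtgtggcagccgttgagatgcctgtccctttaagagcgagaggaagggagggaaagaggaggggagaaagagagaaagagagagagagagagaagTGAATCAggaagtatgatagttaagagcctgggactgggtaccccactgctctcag
The Sp1 window (chr15:102406066-102406365, plus strand) was 61.7% G and C and held 4 GC boxes and 3 CCAAT boxes. The Map2k2 window (chr10:81105665-81105964, plus strand) was 60.7% G and C with 28 CpG dinucleotides and 2 GC boxes. The Gtf3c6 window (chr10:40257663-40257962, minus strand) had 1 ETS core and 1 TATA box, and the Alyref2 window (chr1:171503228-171503527, plus strand) had 1 GC box, 1 CCAAT box and 1 ETS core. The Rnf182 window (chr13:43615547-43615846, plus strand) held none of these motifs and 9 CpG dinucleotides. The Ikbke window (chr1:131279514-131279813, minus strand) held 1 AP-1 site and 4 CpG dinucleotides, an observed-to-expected CpG ratio of 0.19. A match of letters is a description of the window and not evidence of a bound factor.

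The regions held 2614890, 3089230 and 2720569 counts in palmitate libraries 1 to 3, against 2219136, 2855574 and 2852087 counts in control libraries 1 to 3. Libraries of 1 group differed by more than counting noise: the chi-square per degree of freedom between palmitate libraries was 1.19 to 1.49, and control library 2 stood apart from control libraries 1 and 3 with 2.04 and 2.03, where those 2 gave 1.2. Rates are given as CPM, the reads in a region scaled to the library's total in the tested regions times its TMM factor. Of 8 CD8 T cell marker genes, 7 had a region at their end, at mean rates of 16.6 to 109 CPM in palmitate and 19.2 to 103 CPM in control. Few markers of other cells had an open gene end: none of 3 NK genes, 1 of 6 B cell genes, 1 of 3 CD4 T cell genes, 1 of 7 pancreas genes and 3 of 6 myeloid genes had such a region. Cd4, Foxp3, Csf1r, Lyz2, Ncr1, Ins1 and Ins2 had none. Their summed rates were 15.3 CPM in palmitate and 12.9 CPM in control for B cells, 62.2 and 45.1 CPM for CD4 T cells (Zbtb7b), 39.5 and 33.1 CPM for myeloid cells, and 34.6 and 38.8 CPM for pancreas (Cela1). Of these, Zbtb7b (log2 fold change 0.48, edgeR adjusted p = 0.0121) and the myeloid gene Itgam (0.91, adjusted p = 0.0151) passed as higher. The part of such cells in the results was not tested. In bulk libraries, a smaller share of cells with an open region and less opening per cell cannot be told apart.

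With libraries scaled by TMM, more broad gene ends were higher in palmitate than lower. Of the 285 members, 99 rose (34.7%) and 9 fell (3.16%), by the edgeR quasi-likelihood test with Benjamini-Hochberg adjustment over all 24316 tested regions at a false discovery rate of 0.05. Over all tested regions, 11.9% were called higher and 12.7% lower. The median log2 fold change (palmitate over control) was 0.15 in the members, 0.13 in the narrower single-gene end regions and -0.05 in all tested regions, and 229 of 285 members lay above 0. The 3 palmitate libraries lay above all 3 control libraries in 127 members (44.6%, against 17.9% of all tested regions), and below all of them in 18 members (6.32%, against 21.0%). The direction of the group depended on the scaling. With total counts, which moved the median of all tested regions by -0.12, 166 of 285 members lay above 0 and their median was 0.03. With offsets that remove the change that follows region strength within each library (trended offsets), 170 of 285 members lay below 0, the median was -0.04, and 1 member rose (0.351%, against 2.12% of all tested regions) and 19 fell (6.67%, against 4.4%). Without one library at a time, the count of members lower with trended offsets was 18 without palmitate 1, 8 without palmitate 2, 7 without palmitate 3, 8 without control 1, 24 without control 2 and 9 without control 3. With TMM it was 9, and 4 without control 3. With TMM, 71 of the 99 higher calls and 4 of the 9 lower calls held with each library left out in turn.

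Higher calls lay mostly in strong regions and lower calls in weak or middling ones. Members were split at the deciles of their mean rate over all 6 libraries. In the lowest decile (21.5 to 42.3 CPM) 0% were called higher, between 84.9 and 103 CPM 24.1%, and in the highest decile (292 to 862 CPM) 93.1%, while the median log2 fold change was 0.02, 0.14 and 0.35. Narrower single-gene end regions in the same 3 ranges were called higher in 5.22%, 45.8% and 97.8%, with median log2 fold changes of 0.06, 0.22 and 0.37. Of the 9 lower calls among members, 3 and 2 lay in the lowest deciles (21.5 to 42.3 and 42.3 to 57.1 CPM), the other 4 lay between 84.9 and 157 CPM, and 0 lay above 157 CPM. In all 10 deciles the share called higher was smaller in broad than in narrower regions, and in 9 of 10 the median log2 fold change was smaller too.

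**Figure D1:**
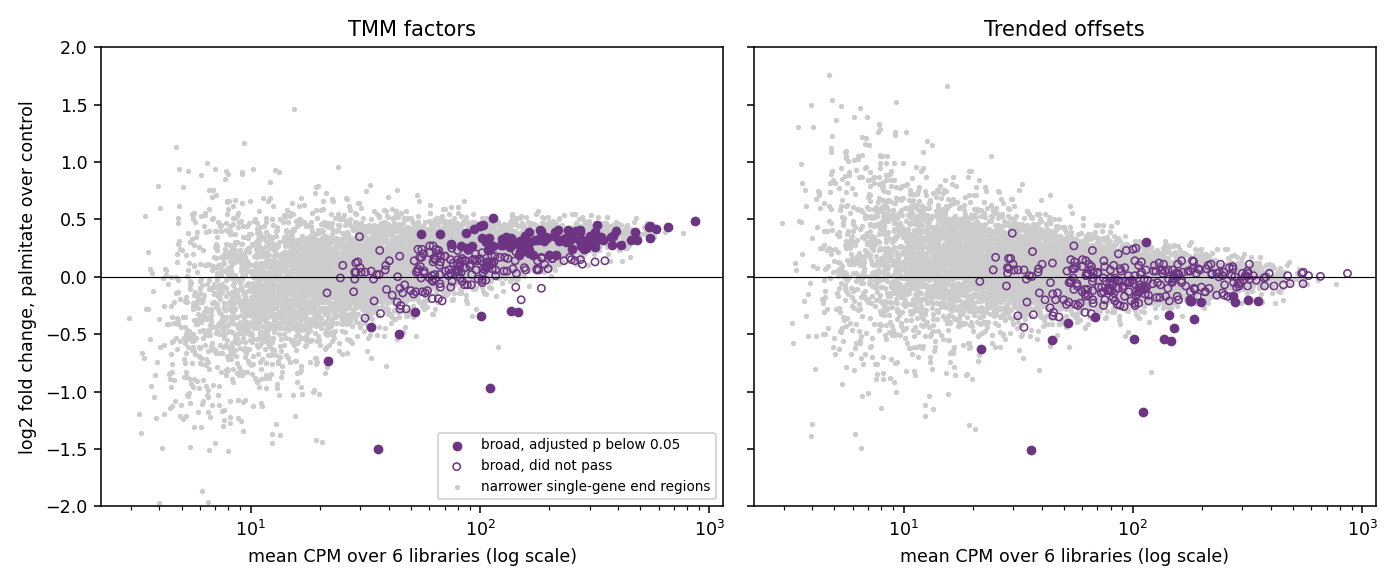
Log2 fold change (palmitate over control) of each single-gene end region against its mean CPM over 6 libraries on a log axis, with TMM on the left and trended offsets on the right. Filled points are broad regions that passed, open points broad regions that did not, and grey points narrower regions, of which those beyond -2 or 2 are not drawn. With TMM the 99 members called higher crowd at high CPM, and with trended offsets the calls are 1 higher and 19 lower.

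Set beside narrower regions of like strength, broad gene ends were called higher less often. Weighted to the members' own distribution of mean CPM, 50.9% of 5467 narrower regions were called higher and 0.439% lower, with a mean log2 fold change of 0.22, against 34.7%, 3.16% and 0.13 in the members. As 1 value per library, the mean log2 CPM of broad regions minus that of narrower ones of like mean CPM was 0.00465, -0.00493 and -0.0362 in palmitate libraries 1 to 3, against 0.095, 0.0642 and 0.0703 in control libraries 1 to 3. All palmitate values lay below all control values. The means were -0.0122 ± 0.0214 in palmitate and 0.0765 ± 0.0163 in control (SD, n = 3 each), a difference of -0.0887 with a two-sided exact permutation p of 0.1, which is the smallest that 3 against 3 libraries can give. With trended offsets the mean log2 fold change was -0.06 in broad regions and 0.03 in narrower ones of like CPM.

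That order rested on how strength was matched. A broad region spreads its reads over more bases, so at like CPM it was less open per base: the median of the members' mean rates was 86.3 CPM per kb, against 170 CPM per kb in the narrower regions. When narrower regions were instead matched on mean CPM per kb, 25.4% of 7187 were called higher, a smaller share than the members' 34.7%, and their mean log2 fold change was 0.11. The same difference per library was then 1.18, 1.18 and 1.15 in palmitate and 1.18, 1.12 and 1.16 in control on the log2 CPM scale, with overlapping groups, a difference of 0.0173 and an exact permutation p of 0.5.

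**Figure D2:**
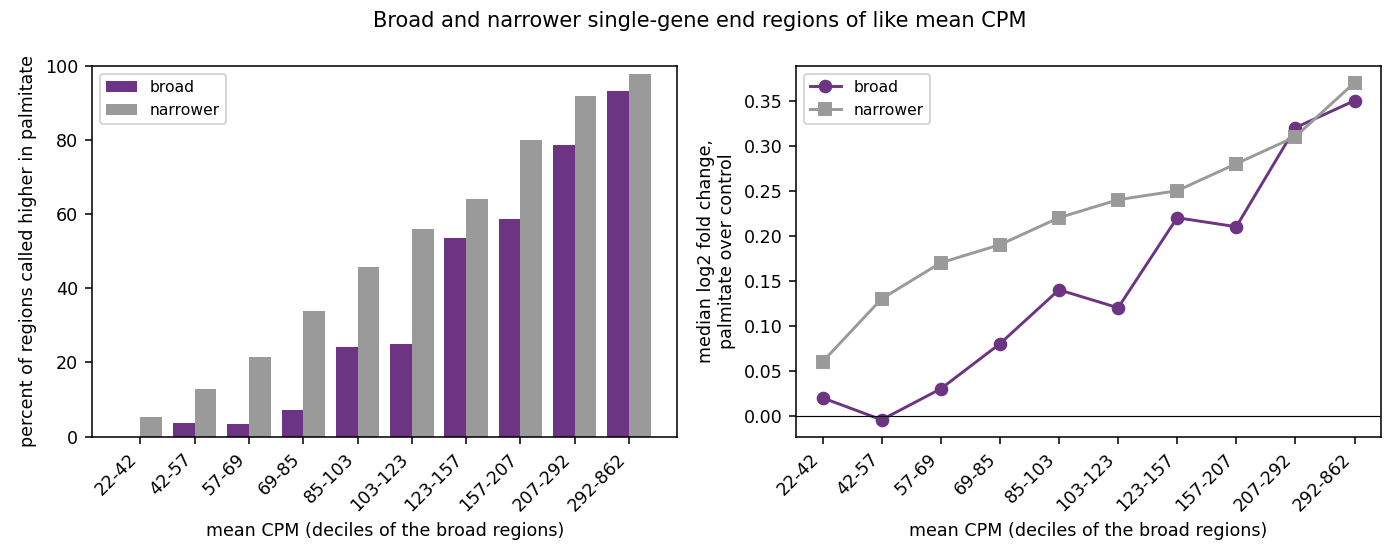
Share of regions called higher in palmitate (left, bars) and median log2 fold change, palmitate over control (right, points), in broad and narrower single-gene end regions by decile of the broad regions' mean CPM, with TMM. The broad regions have the smaller share in each of the 10 deciles and the smaller median in 9 of them.

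Broad gene ends took a larger share of the counts after palmitate, as did narrower gene ends. Members held 4.15%, 4.21% and 4.12% of the counts in palmitate libraries 1 to 3, against 3.92%, 3.77% and 3.91% in control libraries 1 to 3. The groups did not overlap, and the means were 4.16 ± 0.0447% and 3.87 ± 0.0819% (SD, n = 3 each), a difference of 0.293 percentage points (two-sided exact permutation p = 0.1). Narrower single-gene end regions held 50.1%, 50.5% and 50.3% in palmitate and 47.1%, 47.2% and 47.5% in control, a difference of 3.08 percentage points.

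Among the members, width went with the calls. The 95 narrowest members (1000 to 1068 bp) held 41 higher and 0 lower calls, the 95 in the middle (1069 to 1204 bp) held 32 and 3, and the 95 widest (1205 to 2007 bp) held 26 and 6. Their median mean rates were close, at 106, 101 and 102 CPM, and narrower regions of like CPM were called higher in 50.5%, 51.6% and 51.6%. With trended offsets the lower calls numbered 0, 6 and 13. The median log2 fold changes of the 3 groups differed less. They were 0.18, 0.14 and 0.14 with TMM, the same in the middle and widest members, and -0.03, -0.04 and -0.05 with trended offsets. Over all single-gene end regions with a mean of 100 to 200 CPM, the share called higher stepped down with width: 81.2% of 16 regions under 400 bp, 68.3% of 454 from 400 bp, 62.3% of 462 from 600 bp, 57.7% of 189 from 800 bp, 53.4% of 58 from 1000 bp and 33.3% of 33 from 1200 bp. The median log2 fold changes of these bins were 0.28, 0.27, 0.25, 0.24, 0.20 and 0.11, and their median rates fell with width as well, with 371, 252, 194, 159, 127 and 91.0 CPM per kb. Just inside the 1000 bp limit, 31 members of 1000 to 1024 bp had a median log2 fold change of 0.16 with 10 higher and 0 lower calls. Just outside it, 45 regions of 975 to 998 bp had 0.11 with 14 higher and 1 lower.

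The 5 members with the highest mean CPM, Sp1, Zbtb20, Gsk3b, Hspa8 and Ppm1b, all rose with TMM, and none passed with trended offsets. At Sp1, which encodes a zinc-finger factor that binds GC boxes, the region chr15:102405381-102406834 had 979, 1013 and 1025 CPM in palmitate libraries 1 to 3, against 755, 675 and 725 CPM in control libraries 1 to 3. The palmitate libraries lay well above the control libraries, a log2 difference of 0.49 with an SE of 0.053 (edgeR, adjusted p = 3.56e-07). The same region had 0.03 (adjusted p = 0.696) under trended offsets. Its own window, printed above, holds 4 GC boxes.

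Zbtb20, a zinc-finger repressor gene, had 782, 717 and 764 CPM in palmitate, against 557, 557 and 565 CPM in control at chr16:42875057-42876102. Gsk3b, the gene of a kinase that acts in glycogen and Wnt signalling, had 677, 658 and 666 CPM in palmitate, against 505, 474 and 519 CPM in control at chr16:38088571-38089710. Neither gene's groups overlapped, and the log2 fold changes were 0.43 for Zbtb20 and 0.42 for Gsk3b (edgeR adjusted p = 1.98e-06 and 3.58e-06). Cic, which encodes a repressor of growth factor target genes, had 613, 637 and 629 CPM in palmitate, against 491, 428 and 475 CPM in control. Kmt2e, of the KMT2 family named for histone methyltransferases, had 376, 388 and 350 CPM in palmitate, against 281, 254 and 281 CPM in control at chr5:23432707-23434370. Hspa8, the gene of the constitutive HSC70 chaperone, had 618, 647 and 645 CPM in palmitate, against 497, 410 and 503 CPM in control. In each of these 3 regions every palmitate library lay above every control library, and the log2 fold changes were 0.43, 0.45 and 0.44 (edgeR adjusted p = 4.08e-06, 6.84e-06 and 9.28e-06). Ppm1b, a protein phosphatase gene, had 615, 628 and 606 CPM in palmitate, against 499, 479 and 483 CPM in control, again without overlap (log2 fold change 0.34, edgeR adjusted p = 2.87e-05, and -0.06 with trended offsets). Rap2a, a small GTPase gene of the RAS family, and Dcaf11, which encodes a substrate receptor of a ubiquitin ligase, rose by 0.39 and 0.41 (adjusted p = 9.18e-06 and 2.2e-05). With trended offsets none of these 8 passed, and their log2 fold changes lay closer to 0, with 0.11 for Kmt2e (adjusted p = 0.202) and 0.09 for Dcaf11 (adjusted p = 0.349).

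Map2k2 was the single member that passed as higher under both scalings. It encodes MEK2, the kinase that activates ERK1 and ERK2 below RAS and RAF. The region chr10:81105632-81106681 had 127, 134 and 141 CPM in palmitate libraries 1 to 3, against 90.6, 91.2 and 99.6 CPM in control libraries 1 to 3. The groups did not overlap, with means of 134 ± 6.91 CPM in palmitate and 93.8 ± 5.04 CPM in control (SD, n = 3 each). The log2 fold change was 0.51 (SE 0.081, edgeR adjusted p = 3.49e-05) with TMM and 0.30 (SE 0.076, adjusted p = 0.0172) with trended offsets. With TMM the call held with each library left out in turn. With trended offsets no member passed as higher without palmitate 3 or without control 1, so the Map2k2 call was lost in both. The Map2k2 window is CpG-rich and is printed above.

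**Figure D3:**
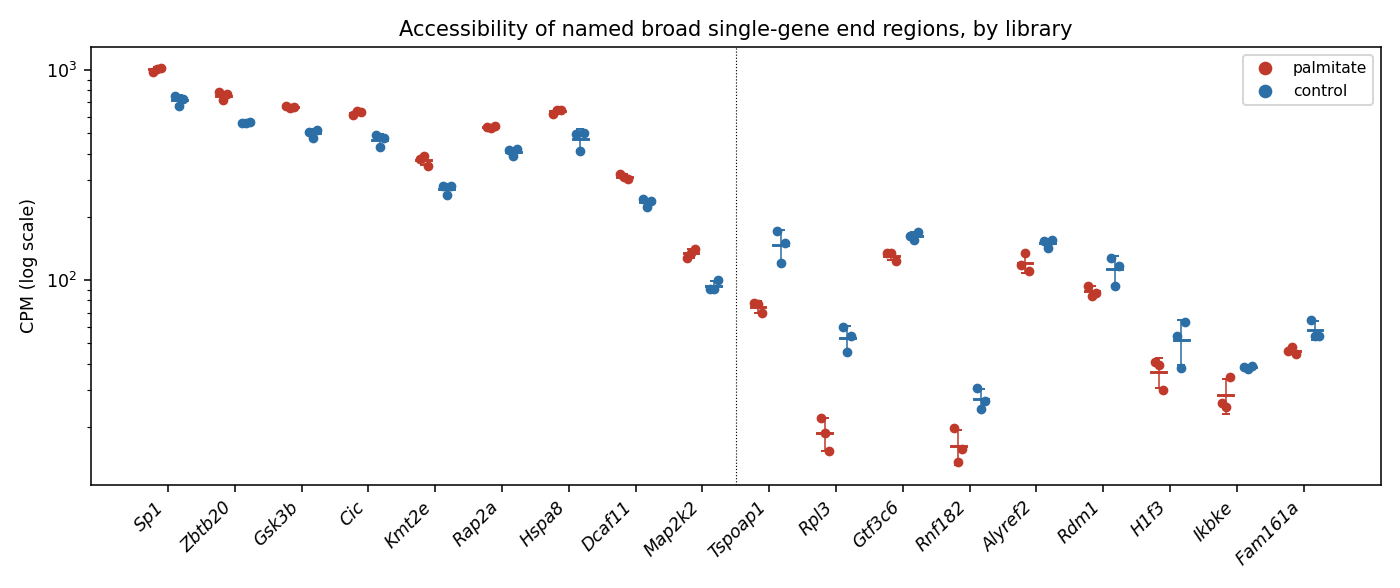
CPM in each library (log axis) of 18 named members, with palmitate left of control. Points are libraries, horizontal marks the mean and whiskers the SD, and the dotted line parts members called higher from members called lower. Tspoap1 and Rpl3 show the widest gaps among members called lower, with means of 74.7 CPM in palmitate and 148 CPM in control for Tspoap1.

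Of the 9 members that fell, a pair stood out in size. At Tspoap1, whose protein binds the mitochondrial translocator protein TSPO and RIM proteins, the region chr11:87758436-87759843 had 78.0, 76.8 and 69.4 CPM in palmitate libraries 1 to 3, against 172, 121 and 150 CPM in control libraries 1 to 3. Every palmitate library lay below every control library, and edgeR gave a log2 fold change of -0.97 ± 0.098 (SE) with TMM (adjusted p = 2.1e-07) and -1.18 with trended offsets (adjusted p = 1.26e-09). The authors' peaks covered 416, 0 and 0 bp of the region in the palmitate libraries, against 1354, 1080 and 1398 bp in the control libraries. The hairpin of Mir142, a microRNA typical of blood cells, lies 1.51 kb from it. The 237 bp region at chr11:87756534-87756771 beside Mir142 was higher: it had 42.6, 34.3 and 46.4 CPM in palmitate, against 23.1, 24.6 and 26.5 CPM in control, a log2 fold change of 0.72 ± 0.15 (SE) in edgeR with TMM (adjusted p = 0.000835) and 0.73 with trended offsets (adjusted p = 0.00337). The other 4 regions near it had log2 fold changes of 0.08 to 0.19 and did not pass. These neighbours were chosen after the values at Tspoap1 were seen.

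Rpl3, which encodes a protein of the large ribosomal subunit, had a broad region 0.638 kb past an end of the gene, at chr15:80075975-80077143. It had 22.1, 18.7 and 15.3 CPM in palmitate libraries 1 to 3, against 59.7, 45.6 and 54.1 CPM in control libraries 1 to 3. The groups were far apart, and edgeR gave a log2 fold change of -1.50 ± 0.16 (SE) with TMM (adjusted p = 2.18e-07) and -1.51 with trended offsets (adjusted p = 4.93e-07). Peaks covered 614, 427 and 279 bp of it in palmitate, against 933, 1051 and 963 bp in control. The region at the opposite end of Rpl3, chr15:80083144-80083676, had 80.0, 87.0 and 83.2 CPM in palmitate, against 76.3, 77.2 and 66.3 CPM in control, and did not pass (log2 fold change 0.19, adjusted p = 0.137). The broad region lies outside the gene, and its partner covers the other end.

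Rnf182, which encodes a RING-finger ubiquitin ligase, had 19.7, 13.6 and 15.7 CPM in palmitate, against 30.5, 24.3 and 26.5 CPM in control at chr13:43614980-43616075. Its groups did not overlap, and it fell by 0.73 on the log2 scale (SE 0.19, edgeR adjusted p = 0.0051), and by 0.63 (adjusted p = 0.0412) with trended offsets. Its window, printed above, is poor in CpG. Ikbke, the gene of the kinase IKKε of innate immune signalling, had 26.0, 24.8 and 34.5 CPM in palmitate, against 38.8, 37.6 and 39.1 CPM in control. The log2 fold change was -0.44 (SE 0.15, edgeR adjusted p = 0.0298), and the call did not hold with trended offsets (-0.44, adjusted p = 0.0744). Fam161a, a ciliary protein gene, had 46.1, 47.9 and 44.5 CPM in palmitate, against 64.5, 54.2 and 54.1 CPM in control, just past the threshold (log2 fold change -0.31, SE 0.12, adjusted p = 0.0498). The Ikbke call was lost without palmitate 1, palmitate 2, control 1 or control 3 (adjusted p of 0.0646 to 0.159), and the Fam161a call without any library but control 2 (0.0816 to 0.222). Rdm1 and H1f3 also passed, with log2 fold changes of -0.34 and -0.50 (edgeR adjusted p = 0.0086 and 0.0152), although a palmitate library lay above a control library in each. Rdm1 encodes a DNA repair protein and H1f3 a linker histone. The Rdm1 call was lost without control 1 (adjusted p = 0.0736) or control 3 (0.0855), and the H1f3 call without palmitate 3 (0.131) or control 3 (0.233).

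Of the 9 members that fell with TMM, 3 had a small nuclear RNA gene within 1 kb. Gtf3c6, which encodes a subunit of TFIIIC of the RNA polymerase III machinery, holds Rnu3a, and its region chr10:40257506-40259161 had 135, 134 and 123 CPM in palmitate, against 162, 155 and 170 CPM in control. Alyref2, an mRNA export factor gene, had 118, 135 and 110 CPM in palmitate, against 153, 142 and 155 CPM in control at chr1:171502069-171503867. In both, every palmitate library was below every control library, with log2 fold changes of -0.31 for Gtf3c6 (SE 0.074, edgeR adjusted p = 0.0024) and -0.30 for Alyref2 (SE 0.08, adjusted p = 0.00555). With trended offsets they were -0.56 and -0.54 (adjusted p = 5.86e-06 and 2.72e-05). With TMM the Alyref2 call was lost without palmitate 3 (adjusted p = 0.0704) or control 3 (0.0636). In all, 7 members had a small nuclear RNA gene within 1 kb (Alyref2, Eapp, Gtf3c6, Poldip3, Rdm1, Sirt4 and Tmem259), a set picked after the values were seen and so given without a test. With TMM 1 of them rose, 3 fell and the median log2 fold change was -0.10, and with trended offsets 5 fell and the median was -0.37. At Sirt4, a mitochondrial sirtuin gene whose region holds 2 such genes, the rates were 173, 184 and 179 CPM in palmitate, against 190, 186 and 199 CPM in control (log2 fold change -0.10, adjusted p = 0.307, and -0.37, adjusted p = 0.000278, with trended offsets). At Tmem259 they were 201, 211 and 210 CPM in palmitate, against 158, 160 and 151 CPM in control, the 1 member of the set that rose (log2 fold change 0.41, adjusted p = 6.04e-05). Among narrower regions of like mean CPM, 8 had such a gene within 1 kb, and 3 of those rose and 0 fell. The 7 members were also wide, with a median of 1655 bp, against 1120 bp in all members and 710.5 bp in these 8 narrower regions. Lower calls were more frequent in wider members, and the part of width here was not tested. Small nuclear RNA genes exist in near-identical copies, and the sources used here do not say how reads that map to several places were counted, so these values are uncertain. The 7 members with a transfer RNA gene within 1 kb, Agbl5 among them, held 1 higher and 0 lower calls with TMM. The 6 with a microRNA gene within 1 kb, Map2k2 among them, held 3 and 0. How such reads were counted is not known for these members either.

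Of the 5 widest members, 2 rose, 2 did not pass and Alyref2, described above, fell with TMM. Agbl5, a deglutamylase gene whose region of 2007 bp at chr5:30887308-30889315 was the widest, had 200, 192 and 217 CPM in palmitate, against 197, 200 and 184 CPM in control. Eapp, a gene for an E2F-associated protein, spanned 1915 bp and had 188, 186 and 177 CPM in palmitate, against 189, 162 and 180 CPM in control. Neither passed with TMM (log2 fold changes 0.07 and 0.06, adjusted p = 0.498 and 0.576), and both fell by 0.22 and 0.21 with trended offsets (adjusted p = 0.0413 and 0.0436). Hcfc1, the gene of a host cell factor that tethers chromatin enzymes, spanned 1813 bp on the X chromosome and had 145, 147 and 146 CPM in palmitate, against 113, 111 and 119 CPM in control. It rose by 0.35 with TMM (SE 0.075, edgeR adjusted p = 0.000866) and did not pass with trended offsets (0.12, adjusted p = 0.32). Peaks covered 1777, 1804 and 1766 bp of the Hcfc1 region in palmitate, against 1356, 1696 and 1365 bp in control. Hsp90ab1, the gene of the constitutive HSP90 chaperone, spanned 1808 bp and had 213, 229 and 245 CPM in palmitate, against 201, 187 and 215 CPM in control, with overlapping groups and an adjusted p just under the threshold (log2 fold change 0.19, adjusted p = 0.0438). That call was lost without palmitate 2, palmitate 3, control 1 or control 2 (adjusted p of 0.0791 to 0.233), and with trended offsets the log2 fold change was -0.10.

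Across 13 lists with 506 genes, chosen for T cells and for fatty acid treatment, 32 members were found, of which 13 rose, 1 fell and 18 did not pass with TMM. With trended offsets 0 rose and 4 fell. The median log2 fold change of the 32 was 0.18 with TMM and -0.08 with trended offsets, against -0.05 and 0.01 over all tested regions, so the direction of these lists follows the scaling as that of all members does. For scale, TMM called 34.7% of the 285 members higher and 3.16% lower, where the background shares were 11.9% and 12.7%. Under trended offsets the members' shares were 0.351% higher and 6.67% lower, beside a background of 2.12% and 4.4%. Whether the list genes differ from the other members was not tested.

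Genes induced by receptor signalling had 5 broad gene ends. Of these, Nfkbia, Dusp1, Dusp2 and Nfkbid rose with TMM and Egr1 did not pass, where 11.9% of all tested regions and 34.7% of all members were called higher. With trended offsets 0 of the 5 rose and Egr1 fell. Nfkbia, which encodes the inhibitor IκBα of NF-κB, had 350, 373 and 350 CPM in palmitate, against 294, 269 and 300 CPM in control, with groups that did not overlap (log2 fold change 0.32, SE 0.061, edgeR adjusted p = 0.000335, and -0.02 with trended offsets). The phosphatase genes Dusp1 and Dusp2, which switch off MAP kinases, had log2 fold changes of 0.27 and 0.31 (adjusted p = 0.00706 and 0.00511), and Nfkbid, the gene of a nuclear IκB protein, had 0.27 (adjusted p = 0.0253). The call was lost without palmitate 3 for Dusp1 (adjusted p = 0.0681), without palmitate 2 for Dusp2 (0.0823), and without palmitate 2 or control 3 for Nfkbid (0.184 and 0.0593). Egr1, an immediate early factor gene, had 385, 360 and 353 CPM in palmitate, against 357, 304 and 338 CPM in control, with overlapping groups (log2 fold change 0.14, adjusted p = 0.103, and -0.21, adjusted p = 0.0173, with trended offsets). Without control 1 it passed as higher (0.19, adjusted p = 0.0451).

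Members were 2 of 32 T cell transcription factor genes, 2 of 38 receptor signalling genes and 5 of 37 cytokine and chemokine receptor genes. None of these 9 passed with TMM. All members together belonged to 285 of 21900 protein-coding genes. That total takes in genes without any open end, and the 285 leave out broad regions at ends of more than 1 gene. The shares of the lists are therefore not set against genes of like openness. Eomes, a T-box factor of CD8 memory and effector cells, had 34.3, 30.6 and 35.3 CPM in palmitate, against 25.7, 26.0 and 26.9 CPM in control. Those groups did not overlap, but the adjusted p was 0.092 (log2 fold change 0.35). Tox, a factor of exhausted T cells, had 40.2, 35.3 and 37.6 CPM in palmitate, against 38.8, 47.2 and 35.4 CPM in control (log2 fold change -0.11, adjusted p = 0.605). The receptor list had Cd3d, a subunit of the T cell receptor complex, whose region lies at the far end of the gene, and Rasgrp1, a RAS activator, with 0.08 and -0.04. Among cytokine genes, Cish, S1pr1, a receptor that guides exit from lymph nodes, Socs3, Stat6, a factor below cytokine receptors, and Tgfbr2, a TGF-β receptor gene, had 0.18, -0.10, -0.09, 0.06 and 0.18, none past the threshold with TMM, although Cish, a cytokine feedback inhibitor gene, passed without control 3 (0.36, adjusted p = 0.0184). Socs3, a feedback inhibitor of cytokine receptors, had 142, 133 and 138 CPM in palmitate, against 166, 116 and 159 CPM in control, and control library 2 set the overlap: without it the log2 fold change was -0.24 (edgeR adjusted p = 0.0177). With trended offsets and all libraries Socs3 fell by 0.33 (adjusted p = 0.0171).

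Of 8 broad gene ends of histone and DNA modifying enzymes, 5 rose and 0 fell with TMM, and 0 passed with trended offsets, where their median was -0.04. Setd5, a SET-domain protein gene, had 454, 481 and 421 CPM in palmitate, against 407, 319 and 392 CPM in control (log2 fold change 0.28, edgeR adjusted p = 0.00304). Beside it and Kmt2e, the acetyltransferase gene Kat7, the methyltransferase gene Kmt2c and the deacetylase gene Hdac2 rose by 0.30, 0.28 and 0.25 (adjusted p = 0.000671, 0.0148 and 0.0417). The Kmt2c call was lost without palmitate 2 or control 1 (adjusted p = 0.126 and 0.0594), and the Hdac2 call without palmitate 1, palmitate 3, control 1 or control 3 (0.0666 to 0.228). Eed, a Polycomb subunit gene, Ino80, a remodeller gene, and Setd1a, a methyltransferase gene, had 0.07, 0.17 and 0.10 and did not pass. Of the splicing factor genes, Srsf5 rose by 0.34 (adjusted p = 0.000836), while Srsf1 had 0.15 (adjusted p = 0.27).

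Of 23 genes of glycolysis and pyruvate entry 1 was a member, Mpc1, a mitochondrial pyruvate carrier gene, with a log2 fold change of 0.12, and it did not pass. Of 34 respiratory chain and mitochondrial genes and 32 genes of the integrated and endoplasmic reticulum stress responses, 0 were members. Akt2, a kinase gene of insulin signalling, and Ccnd2, the cyclin D2 gene, had 0.06 and 0.08 with TMM, and Akt2 fell by 0.21 with trended offsets (adjusted p = 0.0382).

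The authors' peaks showed how the broad regions were filled. In palmitate libraries 1 to 3, peaks covered 77.6%, 79.6% and 72.8% of the members' bases, against 78.3%, 81.3% and 78.9% in control libraries 1 to 3. The groups overlapped, with means of 76.6 ± 3.51% and 79.5 ± 1.58% (SD, n = 3 each) and a two-sided exact permutation p of 0.4, while fewer peaks were listed in palmitate in all (20201, 21502 and 21011, against 22359, 26850 and 27122). Narrower regions of like mean CPM were covered to 81.2%, 80.9% and 76.1% in palmitate, against 80.7%, 84.0% and 83.4% in control. A broad region held on average 1.22, 1.20 and 1.29 peaks in palmitate, against 1.22, 1.26 and 1.30 in control. Exactly 1 peak lay in 78.2%, 79.6% and 70.2% of members in palmitate, against 77.5%, 74.4% and 70.5% in control, where narrower regions of like CPM averaged 98.8% in palmitate and 98.7% in control. So most broad regions were 1 long peak in a library, and the median of their widest peak was 896, 927 and 793 bp in palmitate, against 920, 919 and 920 bp in control.

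**Figure D4:**
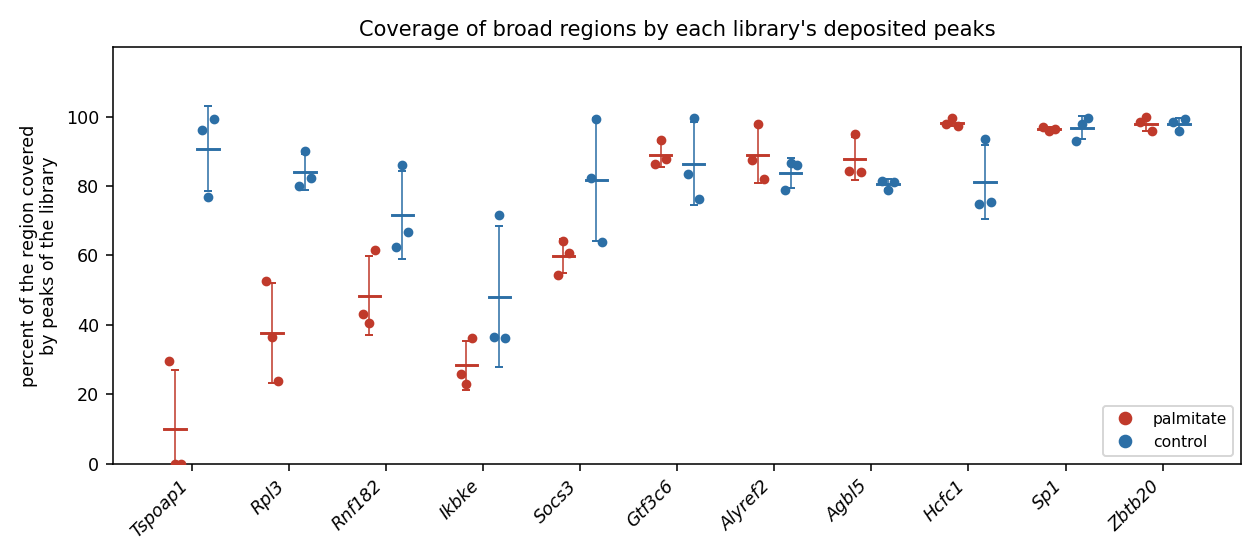
Percent of a region's bases covered by each library's peaks in 11 named members, with palmitate left of control. Points are libraries, horizontal marks the mean and whiskers the SD. Tspoap1 and Rpl3 were covered less in every palmitate library than in any control library, and Hcfc1 more.

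Members that were 1 peak in every list numbered 134, and 60 of them rose (44.8%) and 2 fell, with a median log2 fold change of 0.20, against 58.2% called higher among narrower regions of like CPM. The 6 that held 2 or more peaks in every list (Cnksr3, Hipk3, Lbh, Ppp1r16b, Senp6 and Traf6) held no call in either direction, with a median of 0.06. Of the other 145, whose number of peaks varied between lists, 39 rose (26.9%, against 45.1% of narrower regions of like CPM) and 7 fell. These groups differed in strength too, with median mean rates of 126 CPM, 60.9 CPM and 86.4 CPM. These splits were made after values had been seen and carry no test.

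Broad gene ends were mostly starts. Strand was known from RefSeq start windows for 226 members, and the gene's start lay within 1 kb of 221 of them (97.8%, against 98.8% of narrower regions of like CPM), with 5 at the far end alone. At least 2 RefSeq starts lay inside 32 of the 226 (14.2%, against 7.09%). Another RefSeq gene of any type lay within 1 kb of 81 of the 285 (28.4%, against 24.0%), a long non-coding RNA gene in 58 (20.4%, against 18.3%). Of those 58, 29 rose (50.0%) and 1 fell, with a median rate of 150 CPM, against 59.3% called higher among narrower regions of like CPM and 37.3% of the 919 narrower regions in the same CPM range that had such a gene, whose median rate was 65.7 CPM. In 206 members with a RefSeq start of their gene inside, the region reached, from the start nearest its centre, a median of 523 bp upstream (quartiles 322 and 820 bp) and 594 bp downstream (quartiles 324 and 816 bp), and 110 of them (53.4%) reached farther downstream. Narrower regions of like CPM reached a median of 329 bp upstream and 265 bp downstream, and 39.1% reached farther downstream.

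**Figure D5:**
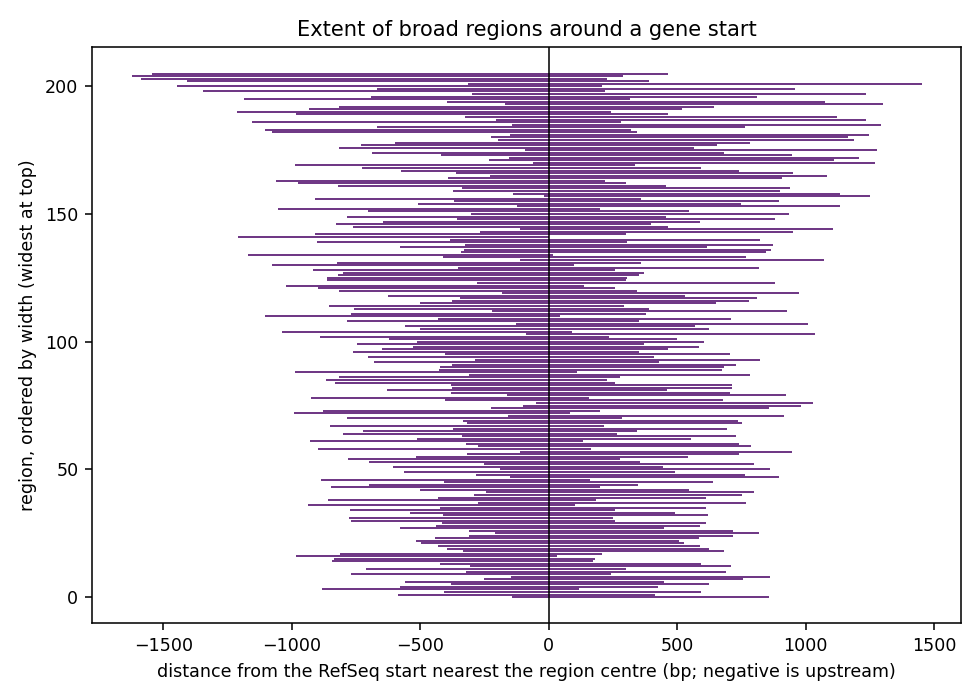
Reach of 206 broad regions around the RefSeq start nearest their centre, in bp, with upstream to the left and 1 line per region, ordered by width with the widest at the top. The regions reach to both sides, with medians of 523 bp upstream and 594 bp downstream.

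The start windows of broad regions were CpG-rich like those of narrower ones, and motif shares differed in both directions. Matched windows (206 members and 3980 narrower regions of like CPM, beside all 32851 RefSeq windows) had a median of 63.8%, 64.3% and 52.7% G and C and an observed-to-expected CpG ratio of 0.813, 0.833 and 0.384. On either strand, a GC box was found in 75.7% of broad windows, 81.5% of narrower ones and 35.7% of all, a CCAAT box in 35.0%, 49.2% and 37.4%, and the ETS core in 11.7%, 20.4% and 8.86%. The NRF1 motif was found in 9.22%, 14.7% and 4.60%, and the E-box (CACGTG) in 11.7%, 12.2% and 7.15%. TATAAA was found in 7.77%, 4.73% and 13.6%, and the AP-1 site in 2.91%, 3.64% and 7.81%. These shares are descriptions of fixed windows, without a test.

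Among the members, base composition went with the call and with strength. The windows of the 99 members that rose, of which 74 had one, had a median of 66.0% G and C and a CpG ratio of 0.847, against 62.8% and 0.80 in the 126 windows of the 177 members that did not pass. The 6 windows of members that fell had 53.0% and 0.731, with CpG ratios of 0.19 to 0.91, the span that the Ikbke and Alyref2 windows above mark out. The median rates of these groups were 199 CPM, 75.5 CPM and 51.9 CPM, and their median widths 1111, 1126 and 1329 bp. The 19 members that fell with trended offsets had a median of 147 CPM and 1385 bp, and their 13 windows 55.3% G and C.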

How the data were processed

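Open chromatin was measured by ATAC-seq in 3 palmitate and 3 control libraries of mouse CD8+ T cells. Per the submitters' processing notes, the tools were Bowtie2 2.5.1, MACS2 2.2.8, edgeR 3.40.2, Picard 2.23.8 and Trim Galore 0.6.10, with mm10 as the genome build. How reads were shifted to the Tn5 cut, merged into consensus regions and counted is not stated there. The deposited matrix gives raw read counts for each region in each library, and the authors deposited a filtered peak list per library, with a score for each peak. Coordinates follow the matrix.

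Members and lists were chosen with earlier results of these data known. The edgeR 4.0.16 quasi-likelihood test (R 4.3.3, two-sided) was fitted on all regions with TMM factors (0.953 to 1.05) and filterByExpr, which left 24316 regions and removed 289, with Benjamini-Hochberg adjustment at 0.05. The common biological coefficient of variation was 0.0659. CPM use TMM library sizes. Trended offsets are loess curves (span 0.3) of each library's log count, with 0.5 added, on mean abundance. Per-library log2 CPM values (pseudocount 0.5) and shares were compared by exact permutation (SciPy 1.17.1). Like strength means deciles of the members' mean CPM. Alternatives included DESeq2 1.42.0 and limma-voom 3.58.1. The code was tested on simulated data. Named are the 8 higher and 8 lower members with the smallest p whose groups did not overlap, the 4 per direction with trended offsets, the 5 widest, the 5 strongest and the 2 strongest per list (34 genes, after leaving out genes not reported here), and others were named after their values were seen. RefSeq sequences come from GRCm38.p6.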

Additional observations from a re-analysis of the deposited data

How the results depend on the processing

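Of the 285 broad single-gene end regions, 99 were called higher and 9 lower. With total counts in place of TMM, which moved the median log2 fold change of all tested regions by -0.12, the calls were 59 higher and 19 lower, and the share called higher among narrower regions of like mean CPM was 27.3% in place of 50.9%. With upper-quartile factors 14 members were called lower, with DESeq2's Wald test 4, and at a false discovery rate of 0.1 14. Trended offsets left 1 higher and 19 lower, and 2.54% of the narrower regions higher. Leaving out each library under trended offsets gave 0 to 3 higher (1, 1 and 0 without palmitate 1, 2 and 3, and 0, 3 and 1 without control 1, 2 and 3) and 7 to 24 lower, with 18 without palmitate 1 and 24 without control 2. With TMM, leaving out each library gave 81 to 96 higher and 4 to 11 lower, with 4 without control 3. A minimum width of 750 bp gave 449 higher and 23 lower of 1287, and a stricter minimum gave 18 and 5 of 75. Fitted over regions in all 6 peak lists alone, 62 of 283 were higher, and among the 204 members with no other RefSeq gene within 1 kb, an alternative added after seeing the data as were the leave-outs under trended offsets, 65 were higher and 5 lower. Matching on mean CPM per kb gave 25.4% of narrower regions higher, and a difference per library of 0.0173 in place of -0.0887. Same-numbered libraries did not deviate together (correlations 0.000449, -0.104 and -0.027), and a fit with the replicate number as a block gave 90 higher and 8 lower, and 48.6% of the narrower regions higher. Where a value moved, the cause was not tested.

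Over 34 members named by rule, 444 alternative values kept direction and call. With the sign kept, 38 lost the call and 5 gained one. Another 23 changed sign, and some of these lost or gained a call as well. With total counts Agbl5 and Eapp had a log2 fold change of -0.05, Cd3d -0.04, Akt2 -0.06 and Ccnd2 -0.03. With upper-quartile factors Akt2 had -0.00011. With trended offsets the members that changed sign had -0.22 for Agbl5, -0.21 for Eapp, Egr1 and Akt2, -0.17 for Ccnd2, -0.13 for Cd3d, -0.10 for Hsp90ab1, -0.09 for Mpc1, -0.08 for Setd5, -0.06 for Ppm1b, -0.03 for Cish and -0.02 for Nfkbia. Leaving out each library in turn gave Tox -0.18 to 0.03, Rasgrp1 -0.13 to 0.07, Socs3 -0.24 to 0.01 and Ccnd2 -0.01 to 0.14. The sign turned without control 2 for Tox (0.03) and Rasgrp1 (0.02), without palmitate 1 for Rasgrp1, without control 3 for Socs3 and without palmitate 3 for Ccnd2. Counting error limits members at low rates, where the lowest decile lies at 21.5 to 42.3 CPM.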
